A study of Mus musculus with 2 samples.

Results

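The genes described are those of the ribosomal proteins of the cytosolic ribosome (Rpl and Rps) and of the mitochondrial ribosome (Mrpl and Mrps), in mouse embryonic fibroblasts with and without the growth factor FGF2. They were chosen by gene symbol, as symbols that start with Rpl, Rps, Mrpl or Mrps followed by a digit, without the Rps6k kinases. The rule found 106 genes of the 7409 with a named probe, 71 cytosolic (40 of the large and 31 of the small subunit) and 35 mitochondrial (19 large and 16 small). RefSeq lists 87 protein-coding symbols that fit the cytosolic rule, of which 70 had a named probe, and 78 that fit the mitochondrial rule, of which 35 had one. The remaining 1 of the 71 cytosolic genes is not listed as protein-coding. A gene without a named probe was not analysed here.

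The cells came from embryos of NMRI mice, an outbred stock, and had been stopped from dividing with mitomycin C, a DNA crosslinker, as is done for feeder cells. The FGF2 culture was kept for 24 h in a medium made for human embryonic stem cells, with serum replacement and 40 ng/ml FGF2, and the control culture was kept in the same medium without FGF2 for 24 h. Both had been plated on gelatine at 55000 cells per square centimetre the day before the change of medium, and embryo age is not given in the labels. Total RNA of each culture was read on 1 single-colour bead array of 24044 probes, so no difference below has a replicate check and none was given a p-value. With so few arrays, the precision is limited by their number.

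The cytosolic ribosome translates the messenger RNAs of the nucleus, and its proteins, with very few exceptions, are needed in equal numbers. Many of their messenger RNAs start with a run of pyrimidines, the terminal oligopyrimidine or TOP motif, through which growth factor signalling by mTORC1 is known to control their translation more than their amount. The mitochondrial ribosome is separate. Its proteins are encoded in the nucleus and imported, and it makes the few proteins encoded by mitochondrial DNA, all of them parts of the respiratory chain and ATP synthase.

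Genes of both ribosomes differed little between the cultures, with 1 exception in each. Mrps6, a protein of the mitochondrial small subunit, was 3.02-fold higher with FGF2, and Rpl13a, a protein of the cytosolic large subunit, 1.65-fold higher. After scaling of the arrays, none of the 97 detected genes was at least 1.5-fold lower, where 204 of all 3005 named genes detected (6.79%) were. At least 1.5-fold higher were 159 of the 3005 (5.29%). These counts depended on the scaling. Rpl7 passed 1.5-fold lower in the signals as deposited, and more genes of both ribosomes passed 1.5-fold higher in the authors' value table. The median log2 ratio of FGF2 over control was -0.03 for 65 detected cytosolic genes and 0.07 for 32 detected mitochondrial genes, beside 0.03 for all 3005 named genes detected.

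A run of pyrimidines is a feature of the DNA around the start of transcription, so 30 bases around the annotated start, from 10 before it to 20 from it on, are shown for genes at both ends of the cytosolic ratios. They are reference sequence from RefSeq, build GRCm38.p6, written 5′ to 3′ on the strand of the gene. Capitals mark the longest run of C and T within the printed bases. The genes run downward in order of their log2 ratio, with Rpl13a at 0.72, Rpl6 at 0.38, Rpl15 at 0.22, Rpl28 at 0.19, Rps6 and Rpl7a both at -0.23, Rps27 at -0.25 and Rpl38 at -0.26.
Rpl13a, chr7:45128726-45128755, minus strand: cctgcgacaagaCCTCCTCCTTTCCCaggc
Rpl6, chr5:121204491-121204520, plus strand: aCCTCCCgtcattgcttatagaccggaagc
Rpl15, chr14:18270967-18270996, minus strand: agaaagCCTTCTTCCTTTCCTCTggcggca
Rpl28, chr7:4792955-4792984, plus strand: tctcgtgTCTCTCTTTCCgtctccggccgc
Rps6, chr4:86857348-86857377, minus strand: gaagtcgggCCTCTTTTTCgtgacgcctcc
Rpl7a, chr2:26910797-26910826, plus strand: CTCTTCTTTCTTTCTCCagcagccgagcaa
Rps27, chr3:90213629-90213658, minus strand: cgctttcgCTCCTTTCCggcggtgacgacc
Rpl38, chr11:114668570-114668599, plus strand: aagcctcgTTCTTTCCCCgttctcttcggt

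The printed run has 14 bases in Rpl13a and 17 in Rpl15, which lie toward the higher end, and 17 in Rpl7a (21 in a wider window) and 10 in Rpl38, which lie toward the lower end. Rpl6, the third of the cytosolic genes from the top, has 6. Among the genes printed, runs of 9 or more thus stand at both ends of the ratios. Not printed are Rpl7l1 (ratio 0.41) and Rpl41 (0.26) at the higher end, each with a longest run of 3 in the wider window. The ratio of Rpl41 was -0.12 in the signals as deposited, so its place depended on the scaling. Toward the lower end Rpl34 (-0.23) has 20 in the wider window and Rpl39 (-0.26) has 8. Rpl7 and Rpl21, with the lowest ratios, had no promoter sequence matched.

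The same window is shown for 4 mitochondrial genes, the 3 with the highest ratios (Mrps6 at 1.60, Mrps10 at 0.58 and Mrpl12 at 0.57) and Mrpl17, second from the bottom at -0.23. Capitals again mark the longest run of C and T.
Mrps6, chr16:92058326-92058355, plus strand: tcgccgTCCgggagctgaccggccgtgttc
Mrps10, chr17:47369187-47369216, plus strand: CCCTCCacggtagagagggccatggaaacc
Mrpl12, chr11:120484627-120484656, plus strand: gCCTCCTCCCggatagagcgtcgcttccgc
Mrpl17, chr7:105811068-105811097, minus strand: cgcatgcgTCCTCTgagacgtgcctccgcc

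Within the printed bases the longest run is 3 in Mrps6, 9 in Mrpl12 and 6 in both Mrps10 and Mrpl17. In the wider window counted below, from 20 bases before the start to 30 after it, the longest run is 10 in Mrps6, 10 in Mrps10, 9 in Mrpl12 and 7 in Mrpl17.

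Signals are given as deposited, in arbitrary intensity units, and differ in overall brightness between the arrays. The 90th percentile of all probes was 548.4 on the FGF2 array and 649.8 on the control array. The lowest signal of a detected probe was 184.9 on the FGF2 array and 194.6 on the control array, with 7424 probes detected with FGF2 and 7599 in control. The log2 ratios, always FGF2 over control, were therefore taken after quantile normalization, which gives both arrays the same distribution of signals. A gene with a deposited signal lower with FGF2 can thus have a ratio above 0. Errors given as ± combine the bead errors of both arrays on the log2 scale and leave out the spread between cultures. A gene counted as detected at a score of 0.99 or more on either array, and its brightest named probe stood for it.

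The cultures carried the markers of fibroblasts. All 7 fibroblast markers with a named probe were detected, and 5 of them were at least 1.5-fold lower with FGF2, where 6.79% of all genes were. Their summed signals were 20003.7 with FGF2 and 41264.0 in control. Of 7 leukocyte markers 2 were detected, Cd53 and Lyz2. Cd53 was detected with FGF2 only, and its control value was raised to a floor, the lowest normalized signal of a detected probe. Against that floor its log2 ratio was 0.87 (1.82-fold higher with FGF2). Lyz2, detected on both arrays, had -0.58. The summed signals over all 7 were 1140.7 with FGF2 and 1235.9 in control, and the defining marker Ptprc was not detected on either array. No pluripotency marker of 4 and no endothelial marker of 1 was detected, and 2 of 4 epithelial and 1 of 3 erythroid markers were. Of the epithelial markers 1 was at least 1.5-fold higher with FGF2, where 5.29% of all genes were. That marker, too, was detected with FGF2 only, and its control value was raised to the same floor. In bulk RNA, fewer cells of a type and less RNA per cell cannot be told apart. The part of these markers in the ribosomal protein values was not tested.

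**Figure D1:**
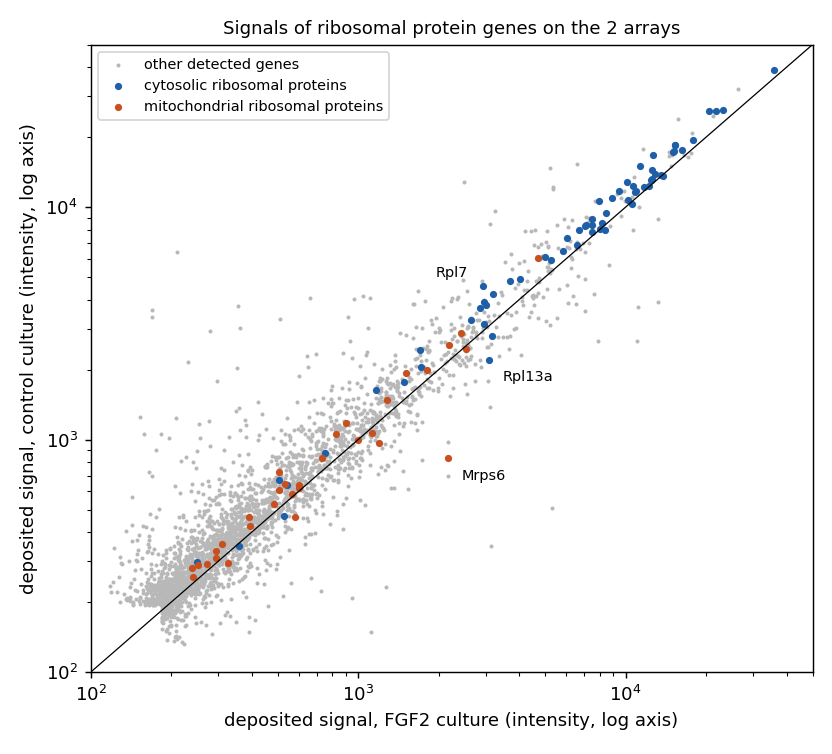
Deposited signal of each detected ribosomal protein gene on the FGF2 array (horizontal) and the control array (vertical), in intensity units on log axes, with 1 point per gene, cytosolic genes in blue, mitochondrial genes in orange, other named detected genes in grey and a line of equal signals. Of the ribosomal protein genes Mrps6 lies farthest from the line toward FGF2, at 2163.2 with FGF2 and 833.7 in control, and most of them lie slightly on the control side.

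Of the 71 cytosolic genes 65 were detected, all of them on both arrays. Their signals ran from 249.7 to 35816.9 with FGF2, with a median of 7949.8, and from 297.0 to 38930.0 in control, with a median of 8377.8. Before scaling, 58 of the 65 were lower with FGF2, as were 2184 of all 3005 genes. After scaling, 1 cytosolic gene was at least 1.5-fold higher, where 159 of the 3005 genes (5.29%) were, and 0 were at least 1.5-fold lower, where 204 (6.79%) were. The quartiles of the ratios were -0.15 and 0.08, against -0.15 and 0.21 for all genes. The standard deviation of the ratios was 0.19 over cytosolic genes, with a median bead error of 0.08, against 0.47 over all genes.

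The direction of the small ratios depended on the scaling. A ratio below 0 was found in 35 of 65 cytosolic genes (53.8%), against 1343 of all 3005 (44.7%). It was found in 58 of 65 in the signals as deposited, where the median of all genes was -0.14. It was found in 12 of 65 in the authors' value table, where the median of all genes was 0.13 and 37.8% of them were below 0. Relative to their own median, 12 genes lay above and 10 below by more than 2 bead errors, 22 of 65 in all, where 1670 of all 3005 genes (55.6%) lay as far from theirs, 848 (28.2%) above and 822 (27.4%) below. In the large subunit (37 detected) the ratios ran from -0.49 for Rpl7 to 0.72 for Rpl13a, with a median of -0.02 and a standard deviation of 0.22. In the small subunit (28 detected) they ran from -0.25 for Rps27 to 0.25 for Rps24, with a median of -0.06 and a standard deviation of 0.13.

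In the large subunit, Rpl13a gave a signal of 3078.8 with FGF2 and 2208.4 in control, a log2 ratio of 0.72 ± 0.07. Rpl13a is also known, from human cells, to leave the ribosome and silence the translation of inflammatory messenger RNAs. A further probe, named by its accession and not counted among the named probes, gave 2165.9 with FGF2 and 1595.6 in control, a ratio of 0.66 ± 0.09. Both probes were thus brighter with FGF2, and their ratios differed by less than their errors. In the signals as deposited the first ratio was 0.48, which is under 1.5-fold, and in the authors' value table it was 0.86.

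Rpl7l1 followed with 528.2 with FGF2 and 470.7 in control, a ratio of 0.41 ± 0.08. Its product resembles Rpl7, and the related protein of budding yeast acts in assembling the large subunit. Rpl7 itself had the lowest cytosolic ratio, with 2923.1 with FGF2 and 4589.9 in control, a ratio of -0.49 ± 0.10 or 1.41-fold lower. The ratio of Rpl7l1 thus exceeded that of Rpl7 by 0.91 ± 0.13 on the log2 scale.

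Rpl6 gave 3165.1 with FGF2 and 2796.5 in control, a ratio of 0.38 ± 0.08. Rpl15, which is mutated in some patients with Diamond-Blackfan anaemia, gave 8363.2 with FGF2 and 7966.1 in control, a ratio of 0.22 ± 0.10. Rpl41, which encodes a very short peptide and had the brightest probe of the FGF2 array, gave 35816.9 with FGF2 and 38930.0 in control. Its ratio was 0.26 ± 0.06 after quantile normalization but -0.12 in the signals as deposited, so its direction depended on the scaling.

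Toward the lower end of the large subunit, Rpl21 gave 1710.4 with FGF2 and 2442.8 in control, a ratio of -0.28 ± 0.09. Rpl38, whose loss of 1 copy in mice alters the pattern of the axial skeleton, gave 11298.3 with FGF2 and 15060.3 in control, a ratio of -0.26 ± 0.06. Rpl39, a small protein of the tunnel through which the new chain leaves, gave 12613.2 with FGF2 and 16685.6 in control, a ratio of -0.26 ± 0.06. Rpl7a gave 3187.8 with FGF2 and 4250.6 in control, a ratio of -0.23 ± 0.09. None of these 4 reached 1.5-fold, and their ratios were -0.19 for Rpl21, -0.06 for Rpl38, -0.05 for Rpl39 and -0.08 for Rpl7a in the authors' value table.

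In the small subunit the highest ratio was that of Rps24, another gene of Diamond-Blackfan anaemia, with 358.0 with FGF2 and 350.7 in control, a ratio of 0.25 ± 0.08. The lowest was that of Rps27, a zinc finger protein, with 7949.8 with FGF2 and 10595.8 in control, a ratio of -0.25 ± 0.08. Rps6, the protein phosphorylated by the S6 kinases downstream of mTORC1, gave 1166.0 with FGF2 and 1638.9 in control, a ratio of -0.23 ± 0.09. All 28 detected small-subunit genes stayed within 1.5-fold, and after Rps24 the next highest was Rps13 at 0.16.

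Beside Rpl41, 3 further cytosolic genes had the brightest probes. Rps14 gave 23176.5 with FGF2 and 26256.7 in control, a ratio of 0.00 ± 0.07. Rpl23, which is known to bind Mdm2 when ribosome assembly is disturbed, gave 21746.8 with FGF2 and 25912.7 in control, a ratio of -0.06 ± 0.07. Rps20 gave 20504.0 with FGF2 and 26003.2 in control, a ratio of -0.18 ± 0.08.

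**Figure D2:**
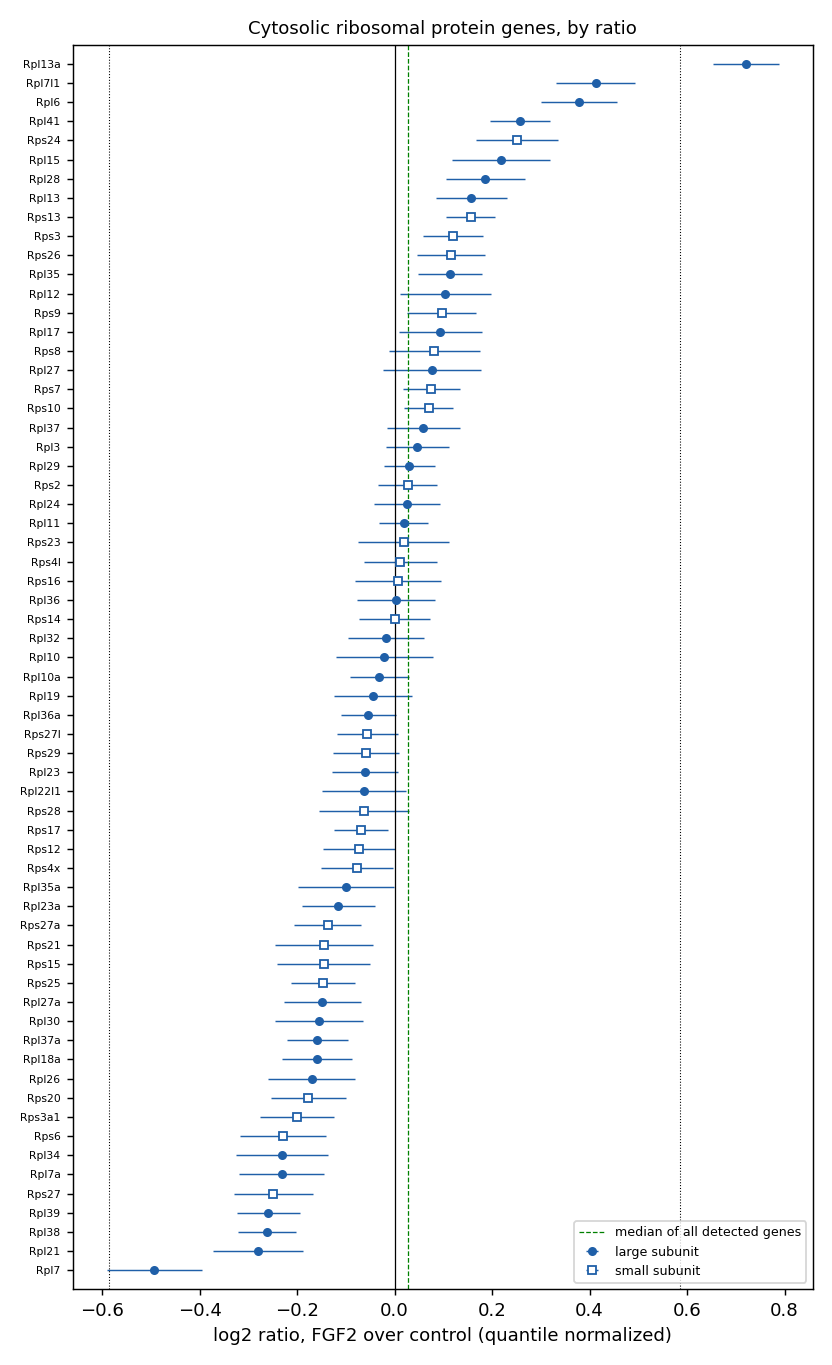
Log2 ratio of FGF2 over control (horizontal) of 64 of the 65 detected cytosolic genes, large subunit as filled circles and small subunit as open squares, with bars of 1 combined bead error, dotted lines at 1.5-fold and a dashed line at the median of all genes. The ratios run from -0.49 for Rpl7 to 0.72 for Rpl13a, and all but Rpl13a stay within 1.5-fold.

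Further pairs of related genes were measured. Rps27l, a paralog of Rps27, gave 7074.4 with FGF2 and 8261.5 in control, a ratio of -0.06, which exceeded that of Rps27 by 0.19 ± 0.10. Rps4l gave 540.3 with FGF2 and 636.2 in control, a ratio of 0.01, and Rps4x, the X-linked gene, gave 7502.1 with FGF2 and 8871.4 in control, a ratio of -0.08. Their difference of 0.09 ± 0.11 was within its error. Rpl36a gave 12598.3 with FGF2 and 14486.4 in control, a ratio of -0.05, while its paralog Rpl36al was not detected.

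Cytosolic ribosomal protein genes have many processed pseudogenes, and 51 of the 65 have at least 1 named after them in RefSeq, against 2 of 32 mitochondrial genes. Probe sequences were not used here, so signal from near-identical copies cannot be separated, and this holds for Rpl7 and Rpl13a too. Of the 106 genes, 13 had several named probes, and in 3 of them the further probe was also detected. Rpl27a showed the widest spread, with 15372.7 with FGF2 and 18541.5 in control for its brighter probe (ratio -0.15) and 1960.3 with FGF2 and 2120.7 in control for the other (ratio 0.12). The difference of -0.27 ± 0.11 between 2 probes of 1 gene is larger than the ratios of most cytosolic genes. Rps3 gave 0.12 and -0.02 on its probes and Rps9 0.10 and 0.09.

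Small nucleolar RNA genes lie inside 26 of the 65 detected cytosolic genes and inside 0 of the 32 mitochondrial ones. These RNAs, released from introns, guide the chemical modification of ribosomal RNA. The median ratio was -0.02 for the 26 host genes, from -0.28 for Rpl21 to 0.72 for Rpl13a, and -0.04 for the other 39. Rpl13a holds 4 of them, Snord32a, Snord33, Snord34 and Snord35a.

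Of the 35 mitochondrial genes 32 were detected, again all on both arrays. Their signals ran from 240.1 to 4709.4 with FGF2, with a median of 590.15, and from 257.8 to 6061.1 in control, with a median of 642.55. After scaling 1 gene, Mrps6, was at least 1.5-fold and at least 2-fold higher, where 1.46% of all genes were at least 2-fold higher, and 0 were lower by either fold, where 2.6% were at least 2-fold lower. The quartiles were -0.03 and 0.21. A ratio below 0 was found in 12 of 32 genes (37.5%), and 19 of 32 lay above the median of all genes, against 22 of 65 cytosolic genes. In the authors' value table these counts were 17 of 32 and 33 of 65, and in the signals as deposited 16 of 32 and 24 of 65. The median was 0.08 in the large subunit (17 detected) and 0.03 in the small subunit (15 detected). More than 2 bead errors from the median of the class lay 8 genes above and 4 below, 12 of 32 in all, against the 55.6% of all genes.

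Mrps6, the counterpart of a bacterial small-subunit protein of the same number, gave a signal of 2163.2 with FGF2 and 833.7 in control, a log2 ratio of 1.60 ± 0.06. Over the alternatives computed its ratio ran from 1.38 in the signals as deposited to 1.89 in the authors' value table, so it stayed above 2-fold throughout. In RefSeq the gene overlaps Slc5a3, which encodes a cotransporter of sodium and myo-inositol. The named probe of Slc5a3 gave 163.9 with FGF2 and 177.3 in control, not well above background on either array. The sources used here do not give which transcripts of the locus the Mrps6 probe reads.

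The remaining 14 small-subunit genes stayed within 1.5-fold. Mrps10 gave 581.2 with FGF2 and 464.9 in control, a ratio of 0.58 ± 0.06 or 1.49-fold, just under 1.5-fold. Mrps12, the counterpart of a bacterial protein of the decoding centre, gave 1003.4 with FGF2 and 1000.1 in control, a ratio of 0.26 ± 0.08. The lowest mitochondrial ratio was that of Mrps16, mutated in a human disorder of the respiratory chain, with 504.8 with FGF2 and 724.4 in control, a ratio of -0.28 ± 0.07.

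Others of the small subunit lay close to 0. Mrps17 gave 900.3 with FGF2 and 1179.2 in control, a ratio of -0.12 ± 0.06. Mrps18c gave 825.0 with FGF2 and 1053.9 in control, a ratio of -0.08 ± 0.07. The bright Mrps24 gave 2434.6 with FGF2 and 2863.6 in control, a ratio of -0.06 ± 0.07. The last is within its bead error of 0, and it was 0.11 in the authors' value table.

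In the large subunit Mrpl12, which in human cells also binds the mitochondrial RNA polymerase, gave 1194.1 with FGF2 and 964.1 in control, a ratio of 0.57 ± 0.09 or 1.49-fold. Mrpl19 gave 326.3 with FGF2 and 293.9 in control, a ratio of 0.35 ± 0.10, and Mrpl22 gave 1131.2 with FGF2 and 1070.6 in control, a ratio of 0.35 ± 0.06. The bright Mrpl20 gave 2532.4 with FGF2 and 2463.8 in control, a ratio of 0.22 ± 0.07. These were the highest of the subunit, and Mrps10, Mrpl12 and Mrpl19 passed 1.5-fold in the authors' value table, with 0.80, 0.71 and 0.64.

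Mrpl17 had the brightest mitochondrial probe, at 4709.4 with FGF2 and 6061.1 in control, and the lowest ratio of the large subunit, -0.23 ± 0.06. Mrpl23 gave 1511.6 with FGF2 and 1936.8 in control, a ratio of -0.10 ± 0.09. Mrpl33 gave 2180.0 with FGF2 and 2559.6 in control, a ratio of -0.03 ± 0.05. The ratio of Mrpl17 was -0.02 in the authors' value table.

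**Figure D3:**
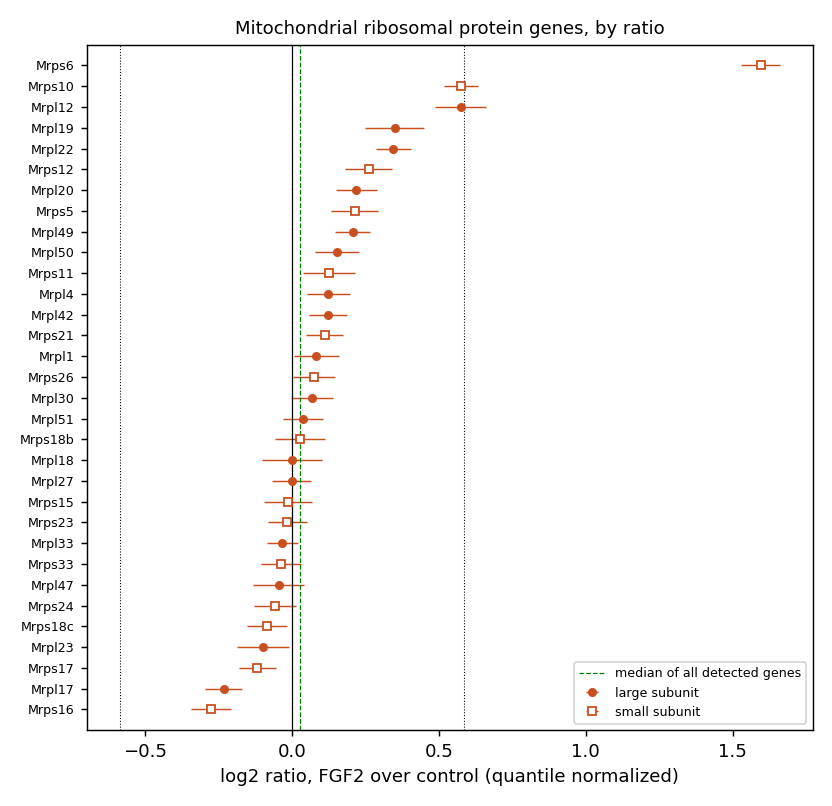
Log2 ratio of FGF2 over control (horizontal) of each of the 32 detected mitochondrial genes, large subunit as filled circles and small subunit as open squares, with bars of 1 combined bead error, dotted lines at 1.5-fold and a dashed line at the median of all genes. Mrps6 stands apart at 1.60, followed by Mrps10 at 0.58 and Mrpl12 at 0.57, and the lowest is Mrps16 at -0.28.

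Not detected on either array were 9 genes, the cytosolic Rpl4, Rpl18, Rpl36al, Rps15a, Rps18 and Rps19 and the mitochondrial Mrpl32, Mrpl35 and Mrps36. The nearest to the threshold was Rpl36al, with 168.5 with FGF2 and 180.3 in control and detection scores of 0.938 with FGF2 and 0.959 in control. The dimmest detected genes were Mrpl47, with 240.1 with FGF2 and 280.3 in control, Mrps26, with 241.7 with FGF2 and 257.8 in control, and Rpl22l1, with 249.7 with FGF2 and 297.0 in control. Proteins such as Rpl4 and Rps18 belong to every ribosome, and these values describe the named probes only. Why those probes read only background was not tested.

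Other genes of like brightness had ratios with a wider spread. Between signals of 3441 and 12879, the quartiles of the cytosolic genes, lay 118 other genes, with a median ratio of 0.04, a standard deviation of 0.63 and 30 genes (25.4%) past 1.5-fold in either direction, where 12.1% of all genes were. In the corresponding range of mitochondrial genes, 389.7 to 1165, lay 932 other genes, with a standard deviation of 0.54 and 165 (17.7%) past 1.5-fold. Across the members, ratio and log2 signal had a correlation of -0.08 over 65 cytosolic genes and 0.04 over 32 mitochondrial genes. These are descriptions across genes that share both arrays.

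**Figure D4:**
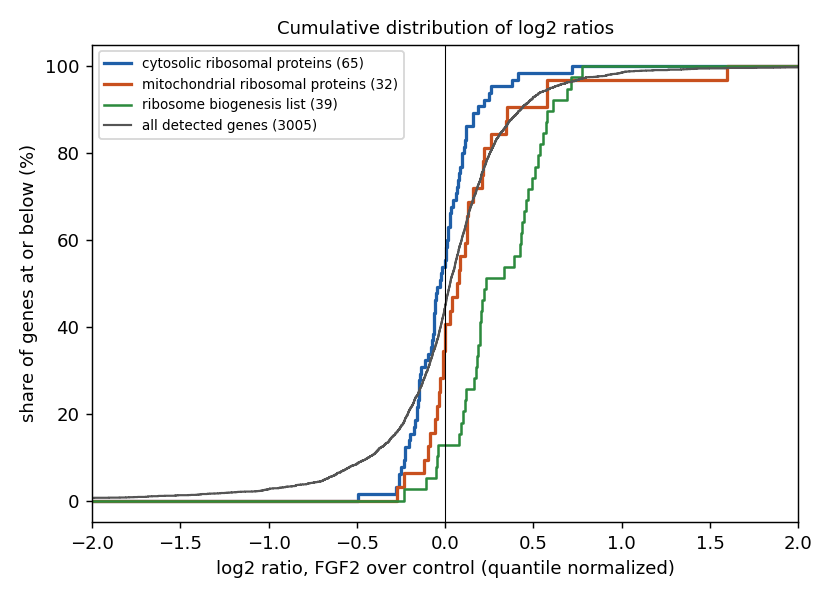
Cumulative share of genes in percent (vertical) at or below each log2 ratio of FGF2 over control (horizontal, shown from -2 to 2) for 65 cytosolic genes, 32 mitochondrial genes, 39 ribosome biogenesis genes and all 3005 named detected genes. The cytosolic curve is steepest around 0 (standard deviation 0.19, against 0.47 for all genes), and the biogenesis curve lies to the right, with a median of 0.23.

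RefSeq promoter sequence, from 250 bases before to 50 after the annotated start, was matched for 47 of the 65 detected cytosolic and 30 of the 32 detected mitochondrial genes. A run of at least 8 pyrimidines between 20 bases before and 30 after the start was found in 26 cytosolic genes (55.3%). It was found in 9 mitochondrial genes (30%) and in 21.3% of 17492 protein-coding genes of the table. Such a run can lie wholly before the annotated start, so these shares do not count TOP messenger RNAs. Where a gene had several annotated starts (7 cytosolic and 1 mitochondrial), its longest run was used. Within the cytosolic genes the median ratio was -0.05 with such a run and 0.02 without, and within the mitochondrial genes 0.13 with and 0.00 without. The start windows printed above, chosen with their values known, hold long runs in Rpl13a and in Rpl7a.

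The motif CCGGAAG, bound by ETS family factors, was searched on both strands and found in 21 of 47 cytosolic (44.7%) and 14 of 30 mitochondrial promoters (46.7%), and in 12.9% of all. It is shown in capitals, as CCGGAAG or its reverse complement CTTCCGG, for genes with higher (Rpl6, Mrpl22, Mrps12) and lower ratios (Rps6, Rpl38, Mrpl17, Mrps16).
Rpl6, chr5:121204501-121204530, plus strand: attgcttatagaCCGGAAGccgctgcctta
Mrpl22, chr11:58171599-58171628, plus strand: acttttccggtcCCGGAAGccggcctcgga
Mrps12, chr7:28741803-28741832, minus strand: taaggaggaaccCCGGAAGgggctggaggt
Rps6, chr4:86857441-86857470, minus strand: gttaatctacgcCCGGAAGtaacgcccctc
Rpl38, chr11:114668548-114668577, plus strand: ggggttaaccgtCCGGAAGcggaagcctcg
Mrpl17, chr7:105811307-105811336, minus strand: ggcatgctccgcCCGGAAGgcgcctcctcc
Mrps16, chr14:20393547-20393576, minus strand: cttgggggcgctCTTCCGGgcttcaggctc

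The median ratio was -0.04 for cytosolic promoters with the ETS motif and -0.01 without, and 0.00 for mitochondrial promoters with it and 0.13 without. The other motifs, searched on both strands, were AAGATGG for YY1 (17.0% of cytosolic, 16.7% of mitochondrial and 7.18% of all promoters), CACGTG, the E-box bound by Myc (8.51%, 6.67% and 8.91%), GGGCGG, the GC box (63.8%, 63.3% and 49.2%), and TGANTCA, the AP-1 motif (0 of 47, 2 of 30 and 8.12%). A match describes the letters in this window and is not a binding site.

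Because Mrps6 stood apart, the 250 bases before its start (chr16:92058086-92058335, plus strand, 74.4% G and C) are shown, with the GC box in capitals. It occurs 4 times, and the first pair overlaps.
Mrps6 upstream: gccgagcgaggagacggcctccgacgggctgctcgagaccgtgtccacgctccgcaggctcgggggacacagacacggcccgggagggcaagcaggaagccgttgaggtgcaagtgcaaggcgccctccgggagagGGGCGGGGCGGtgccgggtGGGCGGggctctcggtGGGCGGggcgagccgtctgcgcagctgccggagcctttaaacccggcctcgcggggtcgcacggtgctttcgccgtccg

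These bases hold 0 matches to the ETS, YY1, E-box and AP-1 motifs. The absence of a match says only that these letters are not in this window.

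Other genes of the ribosome are named outside the rule. Rplp0, which forms the base of the ribosomal stalk, gave 622.4 with FGF2 and 554.5 in control, a ratio of 0.41 ± 0.06. Fau, which encodes a small-subunit protein as a fusion, gave 5278.7 with FGF2 and 5437.1 in control, a ratio of 0.09. Dap3, a GTP-binding protein of the mitochondrial small subunit, gave 2568.5 with FGF2 and 3050.0 in control, a ratio of -0.05. None of these 3 passed 1.5-fold, and Rplp2 and Rpsa were not detected.

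Ribosome biogenesis genes encode the machinery that makes ribosomal RNA and assembles the subunits. Of 131 listed ribosome biogenesis genes 53 had a named probe and 39 were detected, with a median ratio of 0.23, beside 0.03 for all genes, and 34 of the 39 were above 0. Below 0 were 5 of the 39, against 44.7% of all genes. At least 1.5-fold higher were 4 of the 39, where 5.29% of all genes were, and 0 were lower by that fold, where 6.79% were. Polr1a, the largest subunit of RNA polymerase I, rose to 699.0 with FGF2, against 485.3 in control, a ratio of 0.78 ± 0.08. Fbl, the methyltransferase of box C/D small nucleolar RNA particles, rose to 1628.2 with FGF2, against 1183.0 in control, a ratio of 0.71 ± 0.06. The others past 1.5-fold were Nop56, of the same particles, at 0.69 ± 0.08 and Imp3, of the small-subunit processome, at 0.61 ± 0.07. The lowest were Nsa2 at -0.23 and Pes1 at -0.11, both factors of the large subunit.

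The biogenesis median exceeded that of all genes by 0.16 to 0.41 over the alternatives. The count past 1.5-fold higher was 0 of 39 in the signals as deposited, where 81 of all 3005 genes were. After normexp background correction it was 15 of 39, where 281 of all 3005 were. In the authors' value table it was 18 of 38, where 359 of all 2639 genes with values were.

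Of 47 listed genes of mitochondrial translation and gene expression 17 had a named probe and 9 were detected, with a median ratio of 0.00. None of the 9 passed 1.5-fold in either direction, where 12.1% of all genes did. Tufm, the mitochondrial elongation factor Tu, was the highest at 0.50 ± 0.05, followed by Letm1 at 0.27, and the lowest were Slirp at -0.19 and Supv3l1 at -0.07. Of 29 listed genes with TOP messenger RNAs or a role in mTORC1 signalling 21 had a named probe and 16 were detected. Their median was 0.10, beside 0.03 for all genes. Hnrnpa1, an RNA-binding protein, was 1.53-fold higher, with 842.8 with FGF2 and 660.3 in control. It was the only 1 of the 16 past 1.5-fold higher, where 5.29% of all genes were. By that fold 0 were lower, where 6.79% of all genes were. Eif4ebp1, a translation repressor that mTORC1 phosphorylates, followed at 0.47 ± 0.06, and the lowest were Eif3e at -0.13 and Eef1g at -0.04.

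**Figure D5:**
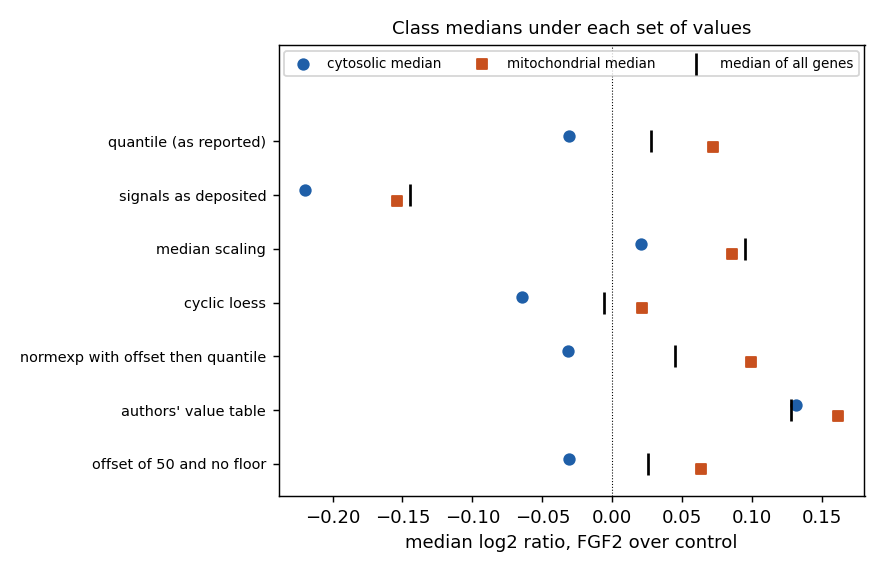
Median log2 ratio of FGF2 over control (horizontal) of cytosolic genes (circles), mitochondrial genes (squares) and all named detected genes (bars) under each set of values (vertical). The cytosolic median lies at or below that of all genes except in the authors' value table, at 0.13 for both, while the mitochondrial median lies above it except in the signals as deposited (-0.15 beside -0.14) and after median scaling (0.09 beside 0.10).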

How the data were processed

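Per the file headers, the deposited per-sample tables give for each probe an average intensity, a bead standard deviation in intensity units and a detection score, a fraction between 0 and 1. The signals were processed with BeadStudio 1.0, per the submitters' processing notes, whose normalization is not stated in the sources used here. The number of beads is not given either, so the bead standard deviation was used as deposited. The authors' value table holds a background-subtracted intensity on a linear scale, empty where the detection score is under 0.99. Compared with the array signals, the control column has slope 1.0 and background 135.4 and its FGF2 column slope 1.28 and background 132.6. Its columns have medians of 276.8 (FGF2) and 262.1 (control) and are not centred per gene. What set the slope is unknown.

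Probes were named by reading the number after scl0 or scl00 in the identifiers as an NCBI gene number of the RefSeq table for GRCm38.p6, which named 8884 of 9523 such probes for 7409 genes. The names rest on that reading. Deposited signals were quantile normalized with limma 3.58.1 (R 4.3.3), raised to a floor at the lowest normalized detected signal (191.7 FGF2, 188.45 control) and log2 transformed. With 1 array per group no test was run, and genes were counted at 1.5-fold and 2-fold. The computation was tested on data simulated from the control array with bead noise and known changes. That simulation held no spread between cultures and no difference in brightness between arrays, so it checked the computation only. Named were the 6 highest and 6 lowest ratios of each class, its 4 brightest genes, genes past 1.5-fold, paralog pairs and the widest spread between probes. From the other gene lists the 2 highest, the 2 lowest and genes past 1.5-fold were named. Rpl28 and the genes beside which promoter sequences stand were chosen with their values known. The members and lists were chosen with earlier results of these data known. Alternatives were deposited signals, median scaling, cyclic loess, normexp with an offset of 16, the authors' table, an offset of 50, other detection rules and the mean over probes. Values of 1 gene of the class and 1 gene of the lists are not reported here by name.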

Additional observations from a re-analysis of the deposited data

How the results depend on the processing

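No paired analysis was possible because each group had 1 array. Bead errors cover variation within an array only, and background was not subtracted, which understates the ratios of dim genes. The median of all genes was 0.03 as reported, -0.14 in the signals as deposited and 0.13 in the authors' value table. In the signals as deposited the cytosolic median was -0.22 and the mitochondrial -0.15, with 0 cytosolic genes at least 1.5-fold higher and 1, Rpl7, at least 1.5-fold lower. In the authors' value table the cytosolic median was 0.13 and the mitochondrial 0.16, with 2 cytosolic genes (Rpl13a and Rpl7l1) and 4 mitochondrial genes (Mrps6, Mrps10, Mrpl12 and Mrpl19) at least 1.5-fold higher. After normexp 3 mitochondrial genes (Mrps6, Mrps10 and Mrpl12) were. Of 80 recomputed class values the other 71 moved by less than the bead error (medians) or stayed within 1.5 times (counts). Some of the 71 could move little or not at all. All 97 detected genes were detected on both arrays, so requiring both left the class medians and fold counts as they were. The mean over probes touched only the 3 genes with a further detected probe. Above the median of all genes were 21 to 33 of 65 cytosolic and 16 to 19 of 32 mitochondrial genes. Relative to all genes the cytosolic median lay between -0.08 and 0.00. Counts over all genes of at least 1.5-fold higher and lower, 159 and 204 as reported, were 81 and 348 as deposited, 281 and 307 after normexp and 359 and 257 in the authors' table. Of the 33 detected genes named for their ratio, brightness or paralog, 23 kept their sign under all 10 alternatives, Mrps6, Rpl13a and Rpl7 among them. For these 33 genes the other detection rules and the mean over probes left the ratio as it was. The offset and normexp, both with quantile normalization, keep the order of signals and so the sign. A sign could thus change only in the deposited signals, median scaling, cyclic loess and the authors' table. Of the others named, Rpl27a was -0.15 as reported and 0.08 in the authors' table, and Rps3 was 0.12 as reported and -0.06 as deposited. The cause of these shifts was not tested.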
